A study of Bos taurus with 86 samples.

Results

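KRT8, KRT18 and KRT19 are the keratins of simple epithelia and were followed here in 43 single bovine embryos. They were taken as every row of the array whose single gene symbol in the platform annotation was one of these 3 names. This gave 10 spots of 16416 in the table, which hold 5 cDNA clones, each spotted 2 times: 1 clone of KRT8, 3 of KRT18 and 1 of KRT19. In the fit, 8 of the 10 spots passed the filter on missing values, and all 3 genes were among the 3433 named genes tested.

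Keratin filaments are built from obligate pairs of a type II and a type I keratin. KRT8 is the type II partner, and KRT18 and KRT19 are type I partners that pair with it. In mammalian embryos this network is known from the trophectoderm, the outer epithelium of the blastocyst that gives rise to the placenta, and from other simple epithelia, where it gives cells mechanical strength. In the RefSeq gene table of cattle, KRT8 and KRT18 lie next to each other with 1 gene between them that codes for no protein, although they are of opposite keratin type. KRT19 lies next to KRT15, a type I keratin of stratified epithelia.

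The study compared embryos from 3 sources, which the labels call IVF (15 embryos), IVD (14 embryos) and AI (14 embryos). IVF was read as in vitro fertilization and AI as artificial insemination. What IVD stands for is not spelled out in the labels, and neither the breed, the developmental stage nor the number of cells of an embryo is given in the sources used here. Each embryo's RNA was amplified in 3 rounds, mixed with a common reference RNA amplified in 2 rounds, and hybridised to 2 arrays with the dyes exchanged. Each value below is an embryo's log2 ratio of embryo over reference, averaged over its 2 arrays, with 0 at the array median. A value of 1 thus means a ratio 2 times that of the median row.

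The direction of the ratios is likely and not stated: taking Cy5 over Cy3 places most trophectoderm genes above the array median and most stromal genes below it. Of 16 other measured trophectoderm markers, 15 lay above the array median in IVF, 15 in IVD and 15 in AI embryos. Their medians were 1.67 in IVF, 1.69 in IVD and 1.99 in AI. Of the 7 stromal genes measured, 1 lay above the array median in IVF, 1 in IVD and 2 in AI. The medians of these 7 were -3.62 in IVF, -3.94 in IVD and -3.84 in AI. If Cy3 were the numerator, the signs of the ratios and of the group differences would reverse, those of the correlations would stay, and the number of calls would not change. Markers of the inner cell mass were covered by KLF4, SALL4 and SPP1 alone, and no gene of the oviduct and endometrium list passed the filter, so the share of trophectoderm in an embryo could not be read from these lists. In whole embryos, fewer cells of a type and less RNA per cell cannot be told apart.

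The IVD arrays stood apart in their technical measures. Rows without a value numbered 3076.5 to 5099.5 per embryo in IVF (mean of an embryo's 2 arrays), 1001.5 to 1871.5 in IVD and 3613 to 5713 in AI. The correlation between an embryo's 2 dye-swapped arrays was 0.717 to 0.911 in IVF, 0.590 to 0.767 in IVD and 0.816 to 0.912 in AI. The IVD embryos overlap neither other group in rows without a value and do not overlap AI in the dye-swap correlation. The labels name no batch, and for missing rows the source of the embryo and this technical difference cannot be told apart. P-values measure the spread between embryos, and IVD embryos 12_1 to 12_4 share part of their number and may share an origin.

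All 3 keratins stood above the array median in every embryo. KRT18 had a mean ratio 6.35 times that of the median row in IVF, 7.00 times in IVD and 8.18 times in AI embryos. For KRT19 it was 5.72 times in IVF, 3.21 times in IVD and 5.07 times in AI. For KRT8 it was 3.03 times in IVF, 2.17 times in IVD and 3.80 times in AI. In the ratios to the reference as deposited, with no centring, KRT18 averaged 5.34-fold in IVF, 6.98-fold in IVD and 6.84-fold in AI, so that the order of IVD and AI turned. KRT19 averaged 4.81-fold in IVF, 3.20-fold in IVD and 4.24-fold in AI as deposited, and KRT8 2.55-fold, 2.16-fold and 3.18-fold in the same groups. KRT8 lay below the reference in 1 IVF embryo (-0.33) as deposited and above it in the other 42, and KRT18 and KRT19 lay above it in all 43. Among the 6278 features tested, 82 had a higher group mean than KRT18 in IVF, 120 in IVD and 56 in AI. With Cy3 as numerator these would be the numbers of features below KRT18. The amounts of these transcripts in the reference are unknown, so a ratio ranks an embryo against the others and does not rank 1 gene's abundance against another's.

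KRT8, the type II partner, was lowest in IVD. Its lowest, median and highest log2 ratios were 0.48, 1.66 and 2.06 in IVF, 0.20, 1.07 and 1.76 in IVD, and 1.39, 1.94 and 2.40 in AI. All 14 IVD embryos lay below the AI median, and 11 of them lay below every AI embryo. Most IVF embryos overlapped the AI range, with embryos 7 (0.48) and 11 (0.81) below it. Of the 15 IVF embryos, 6 lay above every IVD embryo and 13 above the IVD median.

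KRT18, a type I partner, had the closest group medians of the 3 genes. Its lowest, median and highest log2 ratios were 2.06, 2.71 and 3.15 in IVF, 1.82, 2.86 and 3.39 in IVD, and 2.46, 3.09 and 3.36 in AI. IVF embryos overlapped the other groups, although 14 of 15 lay below the AI median. The AI embryos fell into separate sets: H1, H3 and H5 had KRT18 ratios of 2.57, 2.46 and 2.69, and the other 11 had 3.00 to 3.36. The labels do not say what the H stands for. In IVD, embryos 12_1 to 12_4 had 2.84 to 3.39, against 1.82 to 2.98 in the other 10.

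KRT19, the other type I partner, was high in IVF and AI and low in IVD. Its lowest, median and highest log2 ratios were 1.86, 2.43 and 3.31 in IVF, 0.42, 1.82 and 2.50 in IVD, and 1.62, 2.42 and 3.21 in AI. All 15 IVF embryos lay above the IVD median, 6 of them above every IVD embryo, and 7 IVD embryos lay below every IVF embryo. H1, H3 and H5 were at 1.62, 1.66 and 1.91, each below at least 10 of the other 11 AI embryos, which ran from 1.85 to 3.21. Some embryos were extreme in all 3 genes: IVD embryo 6 was the lowest of its group and IVF embryo 1 the highest of its group in KRT8, KRT18 and KRT19.

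**Figure D1:**
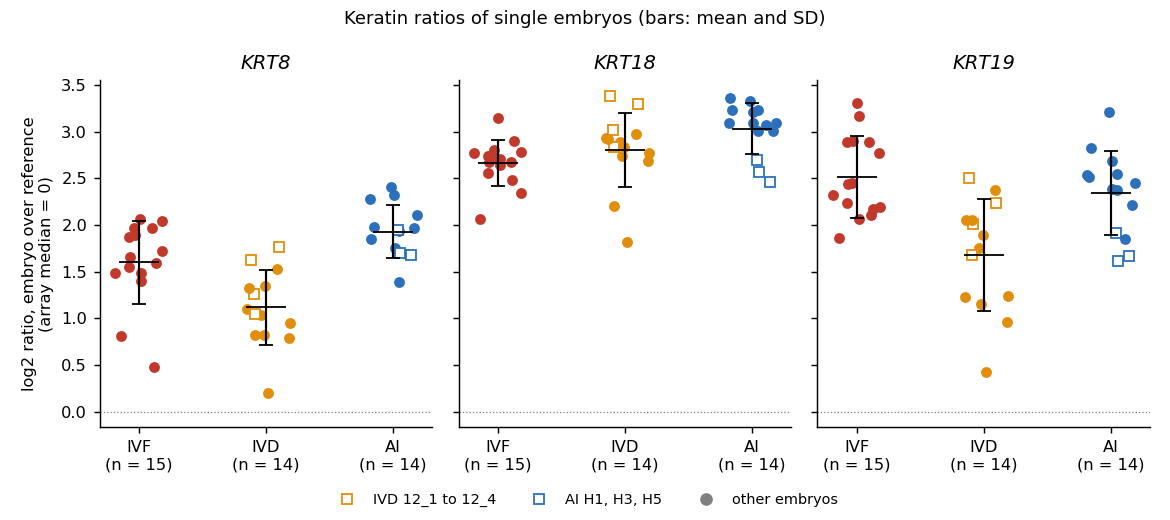
Log2 ratio of embryo over reference, with the array median at 0 (vertical axis), of KRT8, KRT18 and KRT19 in each IVF, IVD and AI embryo; each point is 1 embryo, with the group mean and SD as bars and open squares for IVD embryos 12_1 to 12_4 and AI embryos H1, H3 and H5. KRT8 and KRT19 are lowest in IVD, and the 3 H embryos lie below the other AI embryos in KRT18.

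Groups were compared with limma over all 6278 features, with Benjamini-Hochberg adjusted p-values and a threshold of 0.05. Large parts of the table passed: 37.7% of features between IVF and AI (19.9% higher and 17.7% lower), 46.5% between IVD and AI (25.5% higher and 21.0% lower) and 47.6% between IVF and IVD (22.3% higher and 25.2% lower). In the F-test over the 3 means 66.8% passed, and so did KRT8 (adjusted p = 3.27e-05), KRT18 (0.0215) and KRT19 (0.000297). A call was therefore common in these data.

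IVD embryos were compared with AI embryos, and 2 of the keratins were lower. KRT8 fell to 1.12 ± 0.40 in IVD embryos, against 1.93 ± 0.28 in AI embryos (SD, n = 14 each). The difference was -0.81 ± 0.15 (SE), a ratio of 0.57 on the linear scale, with an adjusted p of 1.46e-05 in limma. KRT19 fell to 1.68 ± 0.60 in IVD embryos, against 2.34 ± 0.45 in AI embryos, a difference of -0.66 ± 0.19 (SE, limma adjusted p = 0.00334). KRT18 did not pass the threshold, with 2.81 ± 0.40 in IVD and 3.03 ± 0.28 in AI (difference -0.22, 95% interval -0.47 to 0.02, limma adjusted p = 0.124).

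Thus 2 of the 3 keratins were lower in IVD than in AI, where 21.0% of all features were. The call on KRT18 depended on the embryos counted and on the processing. Without AI embryos H1, H3 and H5 its difference was -0.35 (limma adjusted p = 0.0163), and with IVD embryos 12_1 to 12_4 counted as 1 embryo it was -0.31 (adjusted p = 0.0369). H1, H3 and H5 have the lowest KRT18 ratios of the AI embryos, and their removal was chosen after seeing the data. This removal raises the AI mean by construction, so the call without them is not a separate test. The KRT18 difference also passed after quantile normalization (-0.45, adjusted p = 0.0026) and with the embryo in Cy3 only (-0.30, adjusted p = 0.05 as rounded). It passed too with the embryo number as a replicate block (-0.50, adjusted p = 0.0396), although the labels do not say that a shared number marks a common origin. In values as deposited its sign turned (0.03, adjusted p = 0.91). The KRT19 call was also lost in values as deposited (-0.405, adjusted p = 0.16), while that of KRT8 passed (-0.556, adjusted p = 0.0281). With rows without a value and the dye-swap correlation as covariates neither KRT8 (-0.20, adjusted p = 0.871) nor KRT19 (-0.73, adjusted p = 0.582) passed. Rows without a value do not overlap between IVD and AI, so this fit cannot tell the source of the embryo from this technical measure.

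In IVF against AI embryos, KRT18 passed the threshold and KRT8 and KRT19 did not. KRT18 fell to 2.67 ± 0.25 in IVF embryos, against 3.03 ± 0.28 in AI embryos (SD, n = 15 and 14), a difference of -0.36 ± 0.12 (SE, limma adjusted p = 0.0134). The KRT8 means were 1.60 ± 0.45 in IVF and 1.93 ± 0.28 in AI, a difference of -0.33 with a 95% interval of -0.62 to -0.04 before adjustment, and did not pass after it (limma adjusted p = 0.0644). KRT19 was 2.52 ± 0.44 in IVF and 2.34 ± 0.45 in AI, with a difference of 0.18 and an interval of -0.19 to 0.54 (adjusted p = 0.461).

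Thus 1 of the 3 keratins was lower in IVF than in AI, where 17.7% of all features were. KRT8 stood close to the threshold: it passed when any of 4 embryos was left out, namely AI embryo 17 (-0.37, adjusted p = 0.0381), IVD embryo 6 (-0.33, adjusted p = 0.0489), IVF embryo 1 (-0.36, adjusted p = 0.0442) or IVF embryo 12 (-0.36, adjusted p = 0.0455). It also passed with the embryo number as a replicate block (-0.60, adjusted p = 0.0352), although the labels do not say that a shared number marks a common origin. IVF embryos 7 and 11, which had the lowest KRT8 ratios, also had the lowest dye-swap correlations of their group. Without both, the KRT8 difference was -0.18 (limma adjusted p = 0.241) and that of KRT18 was -0.30 (adjusted p = 0.0382). The KRT18 call was lost with the embryo in Cy5 only (-0.30, adjusted p = 0.0883) and in values as deposited (-0.36, adjusted p = 0.16). Without the H embryos the KRT18 difference was -0.49 (adjusted p = 0.00131) and that of KRT19 was 0.01 (adjusted p = 0.976). The H embryos hold the lowest KRT18 ratios of AI, so their removal, chosen after seeing the data, widens the KRT18 difference by construction.

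Between IVF and IVD, the type I keratin KRT19 differed most. It was higher in IVF embryos by 0.83 ± 0.18 (SE), a ratio of 1.78, with 2.52 ± 0.44 in IVF and 1.68 ± 0.60 in IVD (SD, limma adjusted p = 0.000189). KRT8 was higher by 0.48 ± 0.14, with 1.60 in IVF and 1.12 in IVD (limma adjusted p = 0.00497). The KRT8 call was lost in values as deposited (0.236, adjusted p = 0.375) and with the embryo in Cy5 only (0.291, adjusted p = 0.207). That of KRT19 passed in both (0.589, adjusted p = 0.0369, and 0.793, adjusted p = 0.000673). KRT18 had a difference of -0.14 with a 95% interval of -0.38 to 0.10 (adjusted p = 0.334). Thus 2 of 3 were higher in IVF, where 22.3% of all features were. With the technical covariates neither KRT19 (0.89, adjusted p = 0.442) nor KRT8 (-0.11, adjusted p = 0.93) passed, with the same limit for rows without a value.

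**Figure D2:**
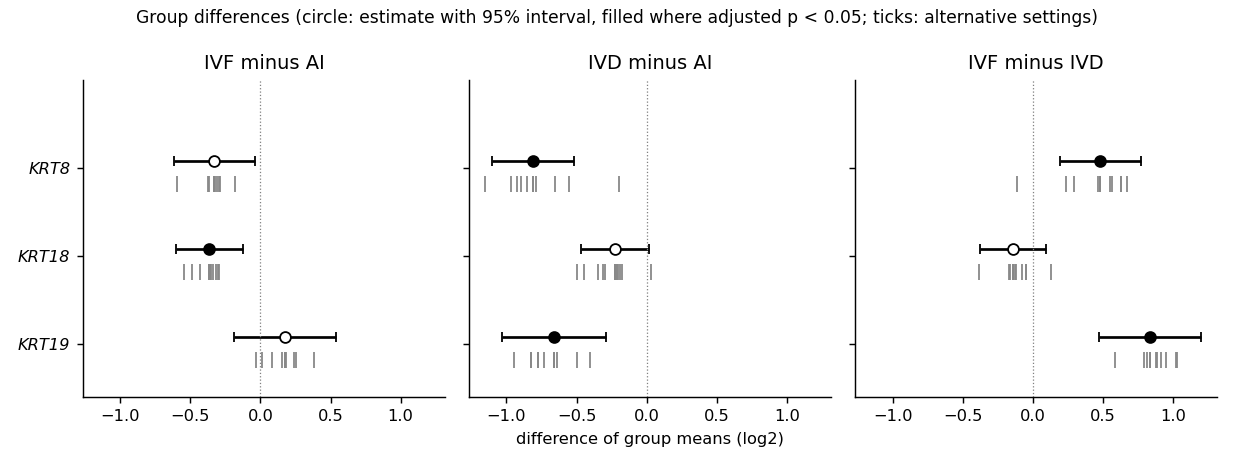
Difference of group means on the log2 scale (horizontal axis) for each keratin in the 3 comparisons; circles are the limma estimates with 95% intervals, filled where the adjusted p is under 0.05, and grey ticks are the alternative settings. KRT8 and KRT19 lie below 0 in IVD against AI under every setting shown, and KRT18 crosses 0 in both comparisons with IVD.

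The difference between 2 keratins within an embryo does not depend on how the arrays are centred, and it follows how far partners moved apart. KRT8 minus KRT18, the type II partner against its neighbour and pairing partner, had a lowest, median and highest value of -2.00, -1.01 and -0.63 in IVF, -1.92, -1.76 and -1.39 in IVD, and -1.61, -1.01 and -0.75 in AI. The IVD values were the lowest set: 9 of 14 lay below every AI embryo, and 14 of 15 IVF embryos lay above every IVD embryo. The exception was IVF embryo 7, at -2.00.

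The group means of KRT8 minus KRT18 were -1.69 ± 0.18 in IVD and -1.10 ± 0.31 in AI (SD, n = 14 each). They differed by -0.59 ± 0.09 (SE, two-sided permutation test, adjusted p = 9e-05 over 9 tests). IVF, at -1.07 ± 0.35, differed from IVD by 0.62 ± 0.10 (permutation test, adjusted p = 0.00012). Between IVF and AI the difference was 0.04 ± 0.12 (adjusted p = 0.768). Without AI embryos H1, H3 and H5 the difference of IVD against AI passed. That of IVF against IVD passed without IVF embryos 7 and 11. These 2 differences from IVD also passed with each dye alone, after quantile normalization and with IVD embryos 12_1 to 12_4 as 1 embryo. They did not pass with rows without a value and the dye-swap correlation as covariates, where they were -0.01 ± 0.32 for IVD against AI (SE, permutation test, adjusted p = 0.967) and 0.05 ± 0.30 for IVF against IVD (adjusted p = 0.967). The IVD embryos do not overlap the other groups in rows without a value, so this technical measure and the source of the embryo cannot be told apart.

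KRT18 minus KRT19, the pair of type I keratins, differed in mean between the 3 groups, whose ranges overlapped. Its lowest, median and highest value was -0.53, 0.20 and 0.73 in IVF, 0.16, 1.10 and 1.72 in IVD, and 0.12, 0.70 and 1.22 in AI. The means were 0.15 ± 0.36 in IVF, 1.13 ± 0.45 in IVD and 0.69 ± 0.26 in AI (SD).

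The 3 differences between these means passed the permutation test. IVF was below AI by -0.54 ± 0.12 (SE, permutation test, adjusted p = 0.000315) and below IVD by -0.98 ± 0.15 (adjusted p = 9e-05). IVD was above AI by 0.44 ± 0.14 (adjusted p = 0.00678). With the technical covariates the call for IVD against AI was lost (0.55, adjusted p = 0.369), while IVF against AI (-0.51, adjusted p = 0.0072) and IVF against IVD (-1.05, adjusted p = 0.0468) passed. With single dyes 2 of these calls were lost: IVF against AI with the embryo in Cy5 only (-0.27, adjusted p = 0.0608), and IVD against AI with the embryo in Cy3 only (0.20, adjusted p = 0.244).

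KRT8 minus KRT19 was -0.92 ± 0.41 in IVF, -0.57 ± 0.33 in IVD and -0.41 ± 0.38 in AI (SD). IVF was lower than AI by -0.50 ± 0.15 (SE, permutation test, adjusted p = 0.00378) and lower than IVD by -0.35 ± 0.14 (adjusted p = 0.0214). The difference of IVD against AI was -0.15 ± 0.14 (adjusted p = 0.306). It passed with the embryo in Cy3 only (-0.47, adjusted p = 0.0154), and its sign turned with the embryo in Cy5 only (0.17, adjusted p = 0.257) and with the technical covariates (0.53, adjusted p = 0.369). The call for IVF against AI was lost with the embryo in Cy5 only (-0.34, adjusted p = 0.0816). That for IVF against IVD was lost with the embryo in Cy3 only (-0.20, adjusted p = 0.197), without IVF embryos 7 and 11 (-0.29, adjusted p = 0.0611) and with the technical covariates (-1, adjusted p = 0.0553).

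**Figure D3:**
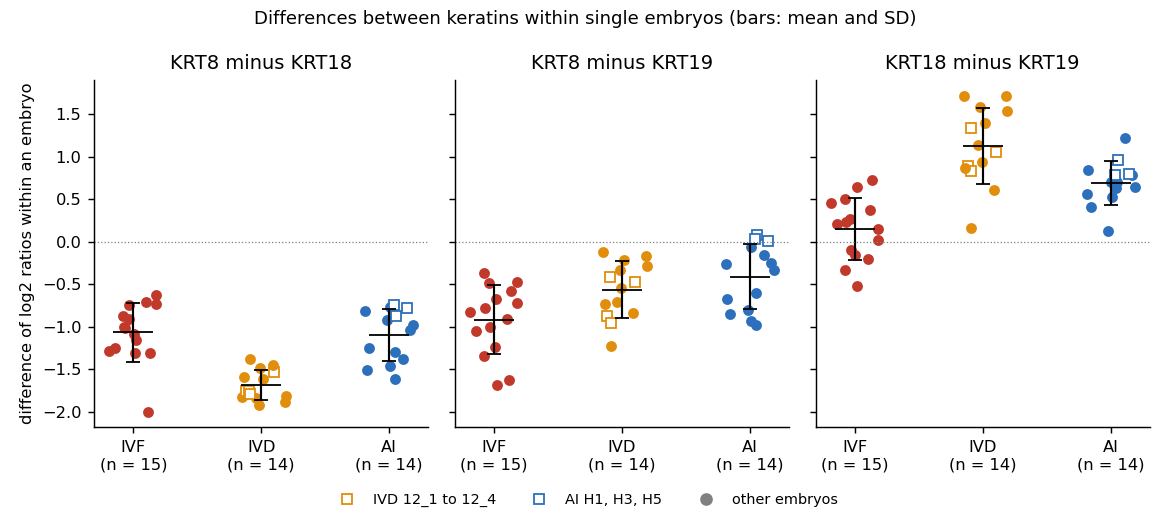
Difference of the log2 ratios of 2 keratins within each embryo (vertical axis) for IVF, IVD and AI; points are embryos, bars are the mean and SD, and open squares mark IVD embryos 12_1 to 12_4 and AI embryos H1, H3 and H5. KRT8 minus KRT18 is lowest in IVD, at -1.69 on average, and KRT18 minus KRT19 runs from IVF (0.15) over AI (0.69) to IVD (1.13).

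The keratins also varied together between embryos of 1 group, with the highest correlation between KRT8 and KRT18 in IVD. Over the 14 IVD embryos KRT8 and KRT18 had Pearson r = 0.903 (permutation test, adjusted p = 9e-05 over the 9 relations computed) and Spearman rho = 0.895 (permutation test, adjusted p = 0.000405). Without the 2 embryos farthest from the median of KRT8, r was 0.777. KRT8 and KRT19 had r = 0.849 (permutation adjusted p = 0.00036) and rho = 0.789 (permutation adjusted p = 0.00351), with r = 0.745 without 2 embryos. KRT18 and KRT19 had r = 0.658 (permutation adjusted p = 0.022), rho = 0.657 (permutation adjusted p = 0.0282) and r = 0.746 without 2 embryos. With embryos 12_1 to 12_4 counted as 1 embryo, KRT18 and KRT19 did not pass (r = 0.571, permutation adjusted p = 0.0696). KRT8 still passed with KRT18 (r = 0.874, permutation adjusted p = 0.000675) and with KRT19 (r = 0.852, permutation adjusted p = 0.00369).

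In AI the type I pair was the closest. Because H1, H3 and H5 form a set apart in KRT18, the relation was also taken over the other 11 embryos, where KRT18 and KRT19 had r = 0.685 (permutation adjusted p = 0.0287). With all 14 it was 0.86 (permutation adjusted p = 0.00027), with rho = 0.881 (permutation adjusted p = 0.000405) and r = 0.75 without 2 embryos. KRT8 and KRT18 did not pass, with r = 0.268 over 11 embryos (permutation adjusted p = 0.424) and 0.40 over 14 (permutation adjusted p = 0.157; rho = 0.495, permutation adjusted p = 0.0835). KRT8 and KRT19 had r = 0.471 over 11 (permutation adjusted p = 0.156) and 0.539 over 14 (permutation adjusted p = 0.0516; rho = 0.565, permutation adjusted p = 0.0489).

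In IVF the relations rested on few embryos. KRT8 and KRT18 had r = 0.639 (permutation adjusted p = 0.0245; rho = 0.586, permutation adjusted p = 0.0355), and r = 0.369 without the 2 farthest embryos, which were embryos 7 and 11. KRT8 and KRT19 had r = 0.576 (permutation adjusted p = 0.0308; rho = 0.62, permutation adjusted p = 0.0282), and 0.394 without them. KRT18 and KRT19 had r = 0.555 (permutation adjusted p = 0.0359), but rho = 0.382 did not pass (permutation adjusted p = 0.161) and r was 0.0976 without the 2 embryos farthest in KRT18. Whether the correlations differ between the groups was not tested. The 3 genes of an embryo share its arrays and their centring, and in values as deposited r of KRT8 and KRT18 in AI was 0.775 (permutation adjusted p = 0.00166).

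**Figure D4:**
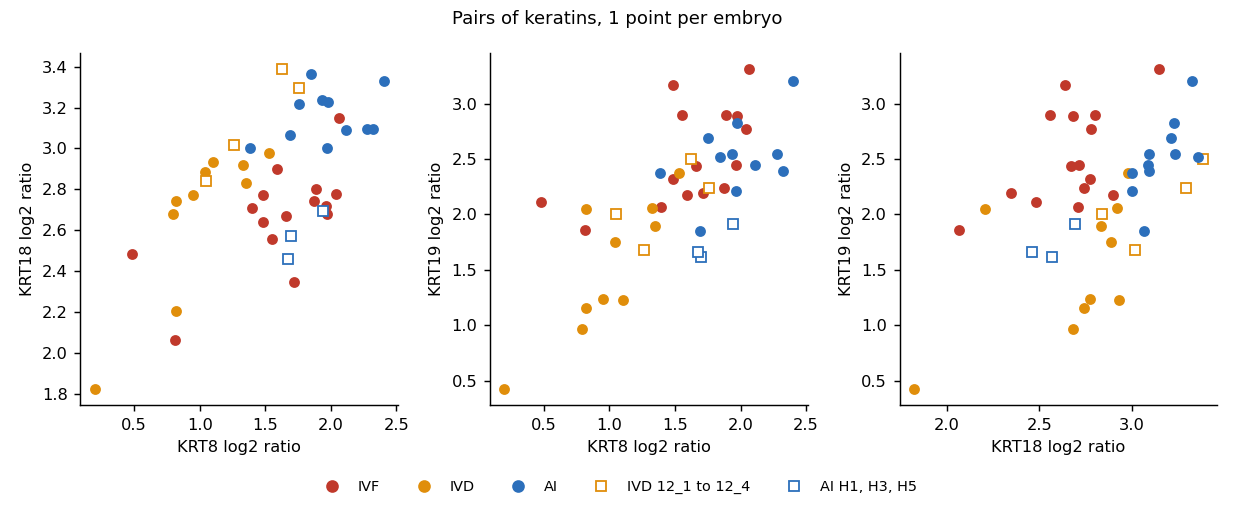
Log2 ratios of 2 keratins on the axes, 1 point per embryo, coloured by IVF, IVD and AI, with open squares for IVD embryos 12_1 to 12_4 and AI embryos H1, H3 and H5. IVD embryos lie along a line in KRT8 and KRT18 (r = 0.903), shifted to lower KRT8 at a given KRT18.

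The spread between embryos did not separate the groups. The mean distance of an embryo from its group median was, for KRT19, 0.36 in IVF, 0.48 in IVD and 0.34 in AI. For KRT8 it was 0.32 in IVF, 0.31 in IVD and 0.22 in AI, and for KRT18 0.16 in IVF, 0.25 in IVD and 0.19 in AI. None of the 9 differences passed a permutation test (adjusted p between 0.635 and 0.937, lowest unadjusted p = 0.283). Within groups, none of 18 correlations of a keratin with rows without a value or with the dye-swap correlation passed, and 2 had an unadjusted permutation p under 0.05. The lowest adjusted permutation p was 0.072, for KRT8 and the dye-swap correlation in IVF (r = 0.768, rho = 0.379), where r was 0.0937 without the 2 farthest embryos. The other was KRT19 and the dye-swap correlation in AI (r = -0.547, permutation p = 0.044, adjusted p = 0.396). There rho was -0.662, and r was -0.625 without the 2 farthest embryos.

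The repeated spots gave like values. Over 43 embryos the spots of a clone correlated at r = 0.977 for KRT8, 0.943 for KRT19 and 0.93 for the first KRT18 clone, and over the 34 embryos with values at 0.983 for the second KRT18 clone. The 2 KRT18 clones correlated at 0.67 in IVF (14 embryos), 0.992 in IVD (11) and 0.735 in AI (10). For IVF against AI, the second clone's spots gave -0.45 and -0.42 (limma adjusted p = 0.0128 and 0.0155), and the first clone's gave -0.26 (adjusted p = 0.088) and -0.41 (adjusted p = 0.00725). The difference between the clones was not tested. Between IVD and AI the 4 spots did not pass (limma adjusted p between 0.115 and 0.231), nor did they between IVF and IVD (0.244 to 0.629).

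The third KRT18 clone was measured on both arrays of 0 IVF, 6 IVD and 0 AI embryos at the first spot and of 0, 13 and 0 at the second, and it failed the filter. Its IVD means were 1.19 ± 0.67 (SD, n = 6) and 0.995 ± 0.525 (SD, n = 13), and its spots correlated at 0.446 over 5 embryos. It was left out of the gene's value. The extent to which cDNAs of 1 keratin bind transcripts of another was not tested.

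**Figure D5:**
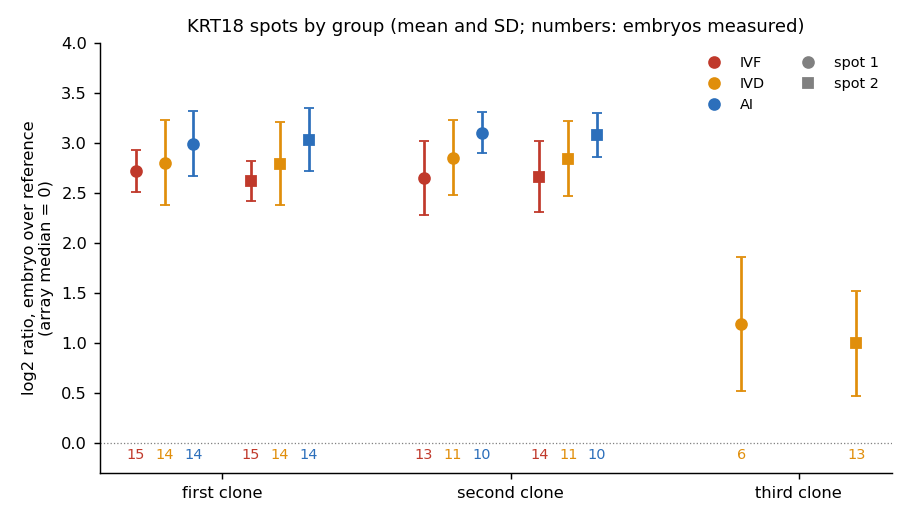
Mean log2 ratio and SD (vertical axis) of each KRT18 spot in IVF, IVD and AI, by clone and spot, with the number of embryos measured on both arrays beneath. The means of the first and second clone lie between 2.62 and 3.10 in every group, and the third was measured on both arrays in IVD embryos only.

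KRT15, the neighbour of KRT19 and the other keratin measured on the array, stayed near the array median. Its lowest, median and highest log2 ratios were 0.07, 0.39 and 0.73 in IVF, 0.09, 0.38 and 0.73 in IVD, and -0.17, 0.14 and 0.84 in AI. The groups overlapped throughout, and limma's adjusted p was 0.0743 for IVF against AI, 0.135 for IVD against AI and 0.781 for IVF against IVD.

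Calls on other genes that involve IVD rarely passed with the technical covariates. Of the calls examined in this way, 2 of 21 passed in IVD against AI and 2 of 21 in IVF against IVD, in both cases VIM and YWHAB, against 15 of 17 in IVF against AI. Over all features, calls under the covariates numbered 106 in IVD against AI, 167 in IVF against IVD and 2393 in IVF against AI. IVD embryos do not overlap the others in rows without a value. A call lost here therefore does not tell this technical measure from the source of the embryo. The sign turned for FOS and SPP1 in IVD against AI and for GATA2, HSD3B1 and SPP1 in IVF against IVD.

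Few genes that link keratin filaments to junctions were measured, 3 of a list of 20. DSC2, a desmosomal cadherin, fell by 1.09 in IVD against AI (means of 1.09 in IVD and 2.18 in AI, limma adjusted p = 0.000683). It was higher by 1.46 in IVF against IVD (adjusted p = 6.93e-06), and its difference of IVF against AI was 0.38 (adjusted p = 0.239). With the covariates the first 2 differences were -0.93 (adjusted p = 0.617) and 1.29 (adjusted p = 0.421). PPL, a plakin that binds filaments at desmosomes, was higher in IVF than in AI by 0.55 (adjusted p = 0.00187) and than in IVD by 0.55 (adjusted p = 0.0012). ITGB4, the integrin of hemidesmosomes, passed in no comparison. Counted over the list, 1 gene was higher and 0 lower in IVF against AI, 0 and 1 in IVD against AI, and 2 and 0 in IVF against IVD, where 37.7%, 46.5% and 47.6% of all features were called. The medians of the list were 0.38 for IVF against AI, 0.00 for IVD against AI and 0.55 for IVF against IVD, where those of all features were 0.04, 0.06 and -0.01.

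Of 9 other intermediate filament genes, 3 were measured. VIM, the filament protein of mesenchymal cells, was far below the array median, at -4.47 in IVF, -5.64 in IVD and -4.57 in AI, and fell by 1.07 in IVD against AI (limma adjusted p = 4.65e-14). LMNA, a lamin of the nuclear envelope, fell by 0.57 in IVD against AI (adjusted p = 0.00028). DES, the filament protein of muscle, fell by 0.38 in IVF against AI (adjusted p = 0.0129). The list thus had 0 genes higher and 1 lower in IVF against AI, 0 and 2 in IVD against AI, and 2 and 0 in IVF against IVD. Of all features, 17.7% were lower in IVF against AI, 21.0% were lower in IVD against AI and 22.3% were higher in IVF against IVD. Its medians were 0.10, -0.57 and 0.72 in these comparisons.

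Of 20 proteins known to bind, modify or cleave KRT8 or KRT18, 6 were measured. SFN, a 14-3-3 protein of epithelial cells, was higher in IVF (2.09) and in IVD (2.01) than in AI (0.94), by 1.15 (limma adjusted p = 3.67e-08) and 1.08 (adjusted p = 6.8e-08). CASP6, the caspase that cleaves type I keratins in dying cells, was lower than in AI (3.02) in IVF (1.88) and IVD (2.33), with differences of -1.14 (adjusted p = 1e-11) and -0.69 (adjusted p = 6.1e-07). Both comparisons share the AI embryos. YWHAB, another 14-3-3 protein, was higher in IVD than in AI by 0.59 (adjusted p = 4.4e-08), and the kinase CSNK1A1 by 0.41 (adjusted p = 3.42e-05).

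The list had 1 gene higher and 1 lower in IVF against AI, 3 and 1 in IVD against AI, and 1 and 4 in IVF against IVD. These are 2, 4 and 5 of 6 genes called, beside 37.7%, 46.5% and 47.6% of all features. Against IVD, IVF was lower in YWHAQ (-0.77, limma adjusted p = 0.000388), YWHAB (-0.75, adjusted p = 9.92e-11), CASP6 (-0.45, adjusted p = 0.000281) and, named after its value was seen, CSNK1A1 (-0.34, adjusted p = 0.000309). SQSTM1, the autophagy receptor, was higher by 0.39 (adjusted p = 0.0146). The medians of the list were -0.04, 0.40 and -0.39.

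Among 15 transcription factors reported to act on these keratin genes or in trophectoderm, 9 were measured. In IVD against AI, TFAP2C, an AP-2 factor of trophectoderm, was higher by 1.04 (limma adjusted p = 2.83e-06), at 4.08 in IVD and 3.04 in AI. KLF4, the fifth by size and named after its value was seen, was higher by 0.61 (adjusted p = 0.00478), while FOS (-1.07, adjusted p = 0.00663), JUNB (-0.69, adjusted p = 2.3e-05) and TFAP2A (-0.63, adjusted p = 0.00794) were lower. With the covariates these were 1.05 for FOS (adjusted p = 0.639), -0.62 for JUNB (adjusted p = 0.483) and -0.61 for TFAP2A (adjusted p = 0.68). TFAP2C (adjusted p = 0.163) and KLF4 (adjusted p = 0.382) did not pass with them either. In IVF against AI the lower genes were FOS (-0.80, adjusted p = 0.0433), TFAP2A (-0.64, adjusted p = 0.00838), JUNB (-0.50, adjusted p = 0.00161) and KLF4 (-0.46, adjusted p = 0.0363), and TEAD4, named after its value was seen, was higher (0.30, adjusted p = 0.0178).

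Counted over the list, 1 factor was higher and 4 lower in IVF against AI, and 3 were higher and 3 lower in IVD against AI. These are 5 and 6 of 9 factors, beside 37.7% and 46.5% of all features called. In IVF against IVD the count was 1 higher, GATA2 (0.22, limma adjusted p = 0.0346), and 3 lower: TFAP2C (-1.11, adjusted p = 4.25e-07), KLF4 (-1.07, adjusted p = 3.26e-06) and GATA3 (-0.56, adjusted p = 0.0486), which makes 4 of 9 beside 47.6% of all features. GATA3 passed in 5 of 15 alternatives, with values from -1.51 to -0.10, and GATA2 in 10 of 15, with values from -0.07 to 0.38. In IVF against AI, KLF4 passed in 7 of 14 and FOS in 9 of 15. The medians were -0.11, 0.09 and 0.00 in the 3 comparisons.

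The 16 trophectoderm markers besides the keratins went both ways. In IVD against AI, 7 were higher and 5 lower, beside 25.5% of all features higher and 21.0% lower. PTGS2, a prostaglandin synthase, was higher by 1.03 (limma adjusted p = 1.09e-07), and DSC2 and SSLP1 were lower (-1.09, adjusted p = 0.000683, and -1.12, adjusted p = 0.00776). In IVF against AI, 1 was higher and 5 lower (19.9% and 17.7% of all features), among them DAB2, an endocytic adaptor (-1.39, adjusted p = 2.33e-05), and ATP1B3, a subunit of the sodium pump (-0.51, adjusted p = 0.00239). In IVF against IVD, 2 were higher and 8 lower (22.3% and 25.2% of all features). Their median differences were -0.05 for IVF against AI, 0.19 for IVD against AI and -0.17 for IVF against IVD.

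Likeness to the keratin pair was measured as Pearson r of each embryo's deviation from its group mean with the mean deviation of KRT8 and KRT18, over 43 embryos and 2165 named genes measured in all of them. KRT19 had the highest r, 0.731. It was followed by TUBB4B, a beta tubulin (0.702), IQGAP3, a scaffold of the actin cytoskeleton (0.667), BSG, a membrane glycoprotein (0.667), MIF4GD (0.638) and PAGE4 (0.633). The lowest were RPA3, a subunit of the single-strand DNA binding complex (-0.635), NUBP2 (-0.608) and EIF4A2, a translation initiation helicase (-0.597). Across all these genes the middle 90% lay between -0.359 and 0.415, and KRT15 had 0.283. These values describe embryos on shared arrays, and they moved in values as deposited. There KRT19, TUBB4B, IQGAP3, BSG and MIF4GD had r between 0.838 and 0.88, KRT15 0.767, NUBP2 0.152, EIF4A2 -0.0151 and RPA3 -0.145.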

How the data were processed

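Embryo and reference RNA were hybridised to 2-colour cDNA arrays. The authors deposited log2 ratios in 1 table of 16416 rows and 86 arrays, and 20.1% of its cells hold no value. The sources used here do not say how images were read or ratios normalized. Array medians ran from -2.26 to 1.05, so the median of the 5558 rows present on all arrays was subtracted from each array. Ratios of arrays carrying the embryo in Cy3 were multiplied by -1, and an embryo's 2 arrays were averaged. Rows with both arrays in at least 7 embryos per group were kept (10757), and rows sharing a single symbol were averaged, which gave 6278 features, 3433 of them named. Symbols came from the platform annotation of 2007, updated through RefSeq (ARS-UCD2.0) by gene identifier (11182 of 11196 rows).

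Groups were fitted with limma 3.58.1 (R 4.3.3). Relations and within-embryo differences used two-sided permutation tests with 100000 resamples (scipy 1.17.1; with covariates, of the residuals), and p-values were adjusted by Benjamini-Hochberg at 0.05. A permutation adjusted p of 9e-05 comes from the smallest p these resamples can give. The limma script was tested on simulated data with the missing values of the table, independent values per feature and changes set in IVF only. Those data held no array offsets and no shared origin of embryos, so the test does not bear on these limits. The number of arrays limits the precision. Other genes named are all keratins, up to 4 called members of each list per comparison, and those most and least like the KRT8 and KRT18 mean. Measured list members that passed in no comparison are named besides, as are genes said to be named after their values were seen. The members and lists were chosen with earlier results of these data known.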

Additional observations from a re-analysis of the deposited data

How the results depend on the processing

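The 9 group differences were recomputed under 15 alternatives each and without each of the 43 embryos in turn, and 117 of the 135 values from the alternatives kept their direction and their side of the threshold. Not all of these values could move. Fits with only the groups compared, or with trend and robust estimation, give the same estimates by construction. Leaving out or joining embryos of the group not compared also leaves a difference as it was. The 117 are therefore not all separate checks. Values below are log2 differences with limma adjusted p-values unless a test is named. Embryo numbers shared between groups do not mark a common origin in the labels, and in 3 of 21 same-numbered pairs the deviations from the group means correlated above 0.1. The median r was 0.006 in these 21 pairs and 0.002 in the 595 other pairs. Embryos whose number occurs in no other group do not add to a contrast with this block. With the number as a replicate block the KRT8 difference of IVF against AI was -0.598 (adjusted p = 0.0352) and the KRT18 difference of IVD against AI was -0.498 (adjusted p = 0.0396), both past the threshold, and no other of the 9 calls changed. In values as deposited, the KRT18 difference of IVD against AI turned to 0.0303 (0.91), and 3 calls were lost: KRT18 in IVF against AI (-0.357, 0.16), KRT19 in IVD against AI (-0.405, 0.16) and KRT8 in IVF against IVD (0.236, 0.375). Against the centred values, those as deposited shift the median difference of all features by 0.259 in IVD against AI and by -0.257 in IVF against IVD, and higher calls then made up 85.3% and 17.5% of calls, against 54.9% and 47.0% after centring. Quantile normalization brought KRT18 in IVD against AI past the threshold (-0.447, 0.0026) and turned it in IVF against IVD (0.128, 0.395). With the embryo in Cy3 only, KRT18 in IVD against AI passed (-0.298, 0.05). With the embryo in Cy5 only, KRT18 in IVF against AI (-0.299, 0.0883) and KRT8 in IVF against IVD (0.291, 0.207) no longer passed, and KRT19 in IVF against AI turned (-0.0287, 0.922). KRT18 in IVD against AI also passed with IVD embryos 12_1 to 12_4 as 1 embryo (-0.313, 0.0369) and without the H embryos (-0.349, 0.0163). The removal of the H embryos, the removal of IVF embryos 7 and 11 and the technical covariates were chosen after seeing the data. Under the covariates the IVD calls were lost: KRT8 (-0.2, 0.871) and KRT19 (-0.733, 0.582) against AI, and KRT19 (0.887, 0.442) and, with a turned sign, KRT8 (-0.113, 0.93) in IVF against IVD. Leaving out 1 embryo at a time turned no difference. The ranges were, for KRT8, -0.37 to -0.249 in IVF against AI, -0.86 to -0.74 in IVD against AI and 0.411 to 0.562 in IVF against IVD. For KRT18 they were -0.409 to -0.322, -0.269 to -0.148 and -0.217 to -0.0963 in these comparisons, and for KRT19 0.119 to 0.242, -0.722 to -0.562 and 0.738 to 0.898.

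The counts of features past the threshold were 2365 (IVF against AI), 2921 (IVD against AI) and 2986 (IVF against IVD). They were 1571, 1770 and 1880 with only the 3533 features from rows measured in every embryo, which tests fewer features. IVF against AI gave 1325 in values as deposited, and under the covariates IVD against AI gave 106 and IVF against IVD 167. Of the group mean levels, 4 moved by more than 1 SD: KRT18 in IVF to 2.42 as deposited, 2.32 in Cy3 and 3.03 in Cy5, and KRT18 in AI to 3.33 in Cy5.

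Of the within-embryo differences (permutation tests), KRT8 minus KRT18 in IVF against AI turned in Cy5 (-0.0647, 0.699). KRT8 minus KRT19 lost the call in IVF against AI in Cy5 (-0.335, 0.0816), and in IVF against IVD in Cy3 (-0.203, 0.197) and without IVF embryos 7 and 11 (-0.288, 0.0611). In IVD against AI it passed in Cy3 (-0.47, 0.0154) and turned in Cy5 (0.167, 0.257). KRT18 minus KRT19 lost the call in IVF against AI in Cy5 (-0.271, 0.0608) and in IVD against AI in Cy3 (0.199, 0.244). Under the covariates, also chosen after seeing the data, KRT8 minus KRT18 lost its calls in IVD against AI (-0.0131, 0.967) and IVF against IVD (0.0543, 0.967). KRT8 minus KRT19 turned in IVD against AI (0.533, 0.369) and lost the call in IVF against IVD (-1, 0.0553), and KRT18 minus KRT19 lost it in IVD against AI (0.546, 0.369). Correlations of KRT8 and KRT18 in AI passed as deposited (0.775) and after quantile normalization (0.603), and those of KRT8 and KRT19 in AI in Cy5 (0.606), as deposited (0.739) and after quantile normalization (0.667). In IVF, KRT8 and KRT18 did not pass in Cy3 (0.445) or without embryos 7 and 11 (0.369), KRT8 and KRT19 in Cy3 (0.547) or without both (0.394), and KRT18 and KRT19 in Cy3 (0.329), with rows measured in every embryo (0.408) or without both (0.337). KRT18 and KRT19 in IVD did not pass with embryos 12_1 to 12_4 as 1 (0.571). No difference in spread passed in any alternative, and 11 of 45 changed sign: as deposited KRT8 in IVD against AI (-0.042), KRT18 in IVF against AI (0.125), IVD against AI (-0.0338) and IVF against IVD (0.159) and KRT19 in IVF against IVD (0.0835), in Cy3 KRT8 in IVF against IVD (-0.0252) and KRT19 in IVF against AI (-0.0444), in Cy5 KRT18 in IVF against AI (0.0563), without the H embryos KRT18 in IVF against AI (0.0601), and without IVF embryos 7 and 11 KRT8 in IVF against AI (-0.0128) and IVF against IVD (-0.103).

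Among 59 differences of other genes, 111 of 866 values lost the call and 8 changed sign. As deposited, in IVF against IVD, these were CYP19A1 (-0.0321) and GATA2 (-0.0283), and after quantile normalization PTGS2 (0.0216). Under the covariates they were, in IVF against IVD, GATA2 (-0.0709), HSD3B1 (-0.519) and SPP1 (-0.0374), and in IVD against AI SPP1 (0.325) and FOS (1.05). Of 60 likeness values, 8 moved beyond their interval and that of NUBP2 turned to 0.152, all 9 as deposited. The cause of these changes was not tested. The depth of a cDNA spot is not known from ratios, so the number of arrays and the missing values limit what could be seen.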

Other observations

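Markers of other cell types also differed between the groups, and their part in the keratin differences was not tested. Of 12 cumulus and granulosa genes 4 were measured, with mean log2 ratios over the genes of -0.79 to 0.38 per embryo in IVF, -1.04 to 0.07 in IVD and -1.32 to 0.00 in AI. In IVF against AI 3 were higher and 0 lower, in IVD against AI 1 and 0, and in IVF against IVD 2 and 0, beside 19.9%, 25.5% and 22.3% of all features higher in these comparisons. Among them were HSD3B1, an enzyme of steroid synthesis, at 1.03 above AI (limma adjusted p = 0.0141) and 1.42 above IVD (adjusted p = 0.00074), and the aromatase gene CYP19A1, at 0.28 above AI (adjusted p = 0.00881) and 0.21 above IVD (adjusted p = 0.0346), both in IVF. With the technical covariates the difference of HSD3B1 from IVD turned to -0.52 (adjusted p = 0.85). That of CYP19A1 from IVD passed in 8 of 15 alternatives and turned to -0.03 in values as deposited. CYP11A1, the side-chain cleavage enzyme, was higher than in AI by 0.41 in IVF (adjusted p = 0.00226) and by 0.41 in IVD (adjusted p = 0.00195), the second of which was 0.31 with the covariates (adjusted p = 0.707).

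The 7 stromal genes, VIM among them, had means of -3.004 to -2.451 per embryo in IVF, -3.415 to -2.995 in IVD and -2.924 to -2.397 in AI. In IVF against AI 0 were higher and 2 lower, in IVD against AI 0 and 5, and in IVF against IVD 4 and 1. Of all features, 17.7% and 21.0% were lower against AI in IVF and IVD, and 22.3% were higher in IVF against IVD. Of the inner cell mass genes, SPP1, a secreted glycoprotein, was at -2.59 in IVF, -3.57 in IVD and -2.75 in AI, and fell by 0.83 in IVD against AI (limma adjusted p = 0.00157), a difference that was 0.33 with the technical covariates (adjusted p = 0.841). KLF4, which is also counted in the list of transcription factors above, was higher in the same comparison by 0.61 (adjusted p = 0.00478). SALL4 passed in no comparison. The hypoblast list had 2 genes measured of 13, which went apart. LAMB1, a laminin chain, was at -0.87 in IVF, -0.54 in IVD and -2.00 in AI, higher than in AI by 1.12 in IVF (limma adjusted p = 4.12e-07) and by 1.46 in IVD (adjusted p = 6.22e-10). COL4A1, a basement membrane collagen, fell by 0.67 in IVD against AI (adjusted p = 0.000347) and was higher by 0.41 in IVF against IVD (adjusted p = 0.0186). With the technical covariates the IVD differences from AI of KLF4 (1.08, adjusted p = 0.382), LAMB1 (1.12, adjusted p = 0.23) and COL4A1 (-0.69, adjusted p = 0.512) did not pass. The blood and immune list had 1 gene measured of 10, CD14, which passed in no comparison.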
